A study of Mus musculus with 20 samples.

Results

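The genes described here are the microRNA precursor and host genes of total RNA from mouse aortic endothelium. A row of the deposited FPKM table (fragments counted per gene, scaled by gene length and library depth) was counted as a member where its gene name begins with Mir and a digit, or with Mirlet, and its FPKM was above 0 in at least 5 of the 20 libraries. This rule kept 195 of 509 rows with such names, out of 32081 rows in all. Of the members, 188 are annotated as precursors, the short hairpins from which microRNAs are cut. These are 51 to 139 bases long, with a median of 84. The other 7 are the longer transcripts Mir22hg, Mir99ahg, Mir17hg, Mir142hg, Mir155hg, Mir133a-1hg and Mir670hg, of 269 to 14045 bases, whose primary transcripts carry microRNA hairpins. The rule used measured values, so how often a member was detected is a description and not a finding.

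All mice were female Apoe-/- mice (B6.129P2-Apoetm1Unc/J), which lack apolipoprotein E, and all had a 5/6 nephrectomy at 9 weeks of age. A single retro-orbital treatment followed 7 weeks after surgery, and the aortic endothelium was collected 1 week later. There were 5 groups of 4 mice. One received saline and one received HDL (high-density lipoprotein, 4 mg). The others received HDL with a locked nucleic acid inhibitor of miR-92a (HDL + LNA92a, 20 mg/kg), with one of miR-489 (HDL + LNA489, 20 mg/kg), or with both (HDL + LNA92a + LNA489, 40 mg/kg in total). No group received a control LNA. Groups without nephrectomy, or with functional apolipoprotein E, were not analysed here. The same 4 HDL libraries enter the comparison with saline and each comparison with an inhibitor group. These 4 comparisons are therefore not independent of each other.

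MicroRNAs arise from long primary transcripts, which may be genes of their own or the introns of protein-coding genes. Drosha with Dgcr8 cuts the hairpin in the nucleus, Xpo5 exports it, Dicer1 trims it to a duplex, and an Argonaute protein loads the mature strand. Bases 2 to 8 of that strand, the seed, pair with target mRNAs. Libraries of total RNA count fragments of primary transcripts and of host introns. They do not measure the mature strands that LNA inhibitors bind. In endothelium the miR-17-92 cluster, which is processed from Mir17hg, and the miR-23b/27b/24 cluster are known for roles in vessel growth. The transcripts of miR-142 and miR-155 are known as products of blood cells and activated immune cells.

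The first set of mature sequences shows which members share a seed with the inhibited microRNAs. They are RefSeq entries of build GRCm38.p6, written 5′ to 3′ with the seed in capitals.
miR-92a-3p: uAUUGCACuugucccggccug
miR-32-5p: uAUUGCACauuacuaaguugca
miR-489-3p: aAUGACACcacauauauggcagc
The table matched 173 of the 195 members, and 170 had a mature sequence. The seed of miR-92a-3p occurred in 7 genes of that table, and 1 of them, Mir32, was a member. Mir32 (chr4, in an intron of Tmem245) had a read in 7 libraries, with a mean of 1.65 reads per library. The related rows Mir92b and Mir363 had reads in 2 libraries and 1 library, below the rule. The seed of miR-489-3p occurred in 2 genes and in 0 members. Mir92-1, a precursor of miR-92a-3p itself, and Mir489, the precursor of miR-489-3p, were not analysed here.

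The second set groups the members that share a seed, which is how microRNA families are defined.
let-7a-5p: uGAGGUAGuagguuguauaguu
let-7b-5p: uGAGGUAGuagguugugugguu
let-7c-5p: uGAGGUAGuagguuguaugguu
let-7g-5p: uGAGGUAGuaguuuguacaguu
let-7i-5p: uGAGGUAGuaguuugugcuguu
miR-98-5p: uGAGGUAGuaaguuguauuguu
miR-99a-5p: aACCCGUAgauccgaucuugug
miR-99b-5p: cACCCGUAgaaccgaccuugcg
miR-27a-3p: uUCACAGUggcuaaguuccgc
miR-27b-3p: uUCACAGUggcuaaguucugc
The let-7 seed GAGGUAG was shared by 8 members. It is listed for 7 of them, Mir98, Mirlet7a-1, Mirlet7b, Mirlet7c-1, Mirlet7c-2, Mirlet7g and Mirlet7i. For Mirlet7a-2 the table lists the other arm, while its hairpin entry holds the let-7a-5p sequence. By the mature entries listed under each gene, the members held 248 distinct seeds, of which 12 were shared by 2 or more members. The 3 members with the seed UCAAGUA were Mir26a-1, Mir26a-2 and Mir26b, which lie within Ctdspl, Ctdsp2 and Ctdsp1.

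The third set gives products of the host genes and the 3 most read precursors, on which the values below turn.
miR-22-3p: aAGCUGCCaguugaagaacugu
miR-155-5p: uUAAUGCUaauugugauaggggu
miR-142a-5p: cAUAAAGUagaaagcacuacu
miR-142a-3p: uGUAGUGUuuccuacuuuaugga
miR-142b: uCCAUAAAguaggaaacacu
miR-17-5p: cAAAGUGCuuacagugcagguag
miR-20a-5p: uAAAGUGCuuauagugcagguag
miR-19b-3p: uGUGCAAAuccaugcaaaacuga
miR-6236: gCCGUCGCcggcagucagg
miR-6240: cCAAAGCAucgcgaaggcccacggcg
miR-703: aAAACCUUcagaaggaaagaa
Within Mir17hg, miR-17-5p and miR-20a-5p share the seed AAAGUGC, while miR-19b-3p has another. miR-142b is listed on the strand opposite miR-142a.

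The libraries held 11614441 to 21357104 assigned reads, recovered as whole reads from the FPKM values, and 17378 to 23365 genes with a read. The labelled tissue is endothelium, and the endothelial markers were present in every library, with Pecam1 between 10.8 and 1009 FPKM. The mean of the 12 endothelial markers ran from 8.69 to 11.9 on the variance-stabilized log2 scale. The mean of 10 adipocyte markers ran from 6.90 to 13.0, and Adipoq from 3.33 to 373 FPKM, so RNA of fat markers was present in varying amount. Libraries are named here by group and animal number, with LNA92a, LNA489 and dual for the 3 inhibitor groups. Some of them stood apart. HDL 11 had the highest B cell and T cell list means, at 11.5 and 10.1, against medians over all libraries of 7.30 and 8.48. Saline 2 and dual 10 had adrenal cortex list means of 13.5 and 12.7, against a median of 5.52. In such bulk RNA, fewer cells of a type and less RNA per cell cannot be told apart.

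Most members were read rarely. Between 36 members (LNA489 7) and 155 members (Saline 9) had a read in a library, with a median of 81. Of the 195, 177 had a mean under 10 reads per library and 151 a mean under 5, while 9 had reads in all 20 libraries. Just inside the rule, 38 rows were above 0 in exactly 5 libraries (Mir10b, Mir1198 and Mir145a are the first by name). Just outside it, 44 were above 0 in exactly 4 (Mir103-1, Mir130a and Mir148b). The patchy detection was not particular to short or to microRNA rows. Members of up to 200 bases with a mean of 3 to 7 reads had reads in a median of 10 libraries, as did all such rows of up to 200 bases and all rows over 1000 bases.

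**Figure D1:**
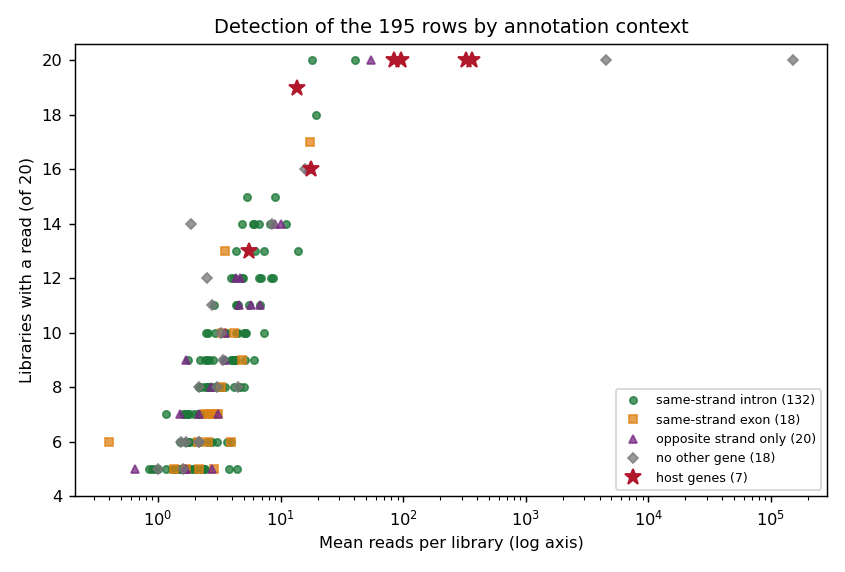
Number of libraries with a read (of 20) against mean reads per library on a log axis, for the 195 members by annotation context, each point being one row. Rows under 10 reads spread between 5 and 15 libraries, and Mir6236 and Mir6240 stand alone at the right with means of 152074 and 4503 reads.

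Most members lay within introns of other genes. Of the 188 precursors, 132 (70.2%) lay in an intron of a gene on the same strand, 18 in an exon, 20 opposite a gene and 18 apart from any other gene. Among rows below the rule 190 of 312 (60.9%) were intronic, and among all 2207 microRNA genes of the annotation 793 (35.9%). The hosts of the intronic members had a median of 864 reads. Of them, 92.4% had a mean of at least 100 reads, against 72.6% for rows below the rule. Members were selected by reads in these same libraries. The host taken was the shortest enclosing gene with a mean of at least 10 reads, where there was one. These contrasts with other rows are therefore a description and not a finding. Per length, the intronic precursors had a median of 2.35 FPKM and their hosts 9.18 FPKM. The precursor's FPKM was above its host's in 16 of 131 pairs (12.2%), among them both intronic members within Mir99ahg. Mirlet7c-1 had 4.14 FPKM and Mir99a 3.97 FPKM, against 1.52 FPKM for that host transcript. Across the 131 pairs the rank correlation of precursor and host FPKM was 0.30, a description over genes that share libraries.

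The 8 members with the let-7 seed were each read at a low level, from a mean of 2.2 reads (Mir98, in an intron of Huwe1) to 5.9 reads (Mirlet7c-1). Summed over the 8, the saline libraries had 14, 22, 59 and 36 reads and the HDL libraries 66, 8, 26 and 28. The HDL + LNA92a libraries had 15, 35, 11 and 17 reads, the HDL + LNA489 libraries 52, 44, 22 and 18, and the dual libraries 19, 40, 33 and 30. Every group overlapped every other. Of the miR-23a/27a pair on chr8, Mir23a had a mean of 8.45 reads in 14 libraries and Mir27a a mean of 3 reads in 8.

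Nearly all member reads came from 2 rows. Mir6236 (chr9:110281287-110281409, 123 bases, GRCm38, apart from any other gene) took 96.1% of all member reads, and with Mir6240 (chr5:114851948-114852064, 117 bases) 98.9%. Mir6236 alone was 0.164% of the assigned reads in dual 10 and 3.14% in LNA92a 17. By library, the reads of Mir6236 were 206517, 268819, 81420 and 54999 with saline and 222221, 152699, 105006 and 68849 with HDL. They were 283341, 86101, 380066 and 288240 with HDL + LNA92a, and 193370, 65190, 42435 and 260596 with HDL + LNA489. In the dual group they were 90135, 35059, 44902 and 111507. The 3 highest libraries were all of the HDL + LNA92a group, while LNA92a 12 of that group fell within the range of every other group.

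Both rows followed 18S ribosomal RNA. Across the 20 libraries Mir6236 and Mir6240 had r = 0.97 (rho = 0.95, permutation adjusted p = 3e-05), and 0.96 without the 2 farthest libraries. Mir6236 and Rn18s-rs5, a gene of 18S ribosomal RNA, had r = 0.96 (rho = 0.94, permutation adjusted p = 3e-05). For Mir6240 and Rn18s-rs5 r was 0.95 (rho = 0.94, permutation adjusted p = 3e-05). These pairs are among 9 chosen after their values were seen, and their p is the smallest that the 100000 permutations allow. Without the 2 libraries farthest from the median of Rn18s-rs5 the r were 0.94 and 0.96, and with group means removed 0.96 and 0.97. The mitochondrial ribosomal RNA mt-Rnr2 had r = 0.72 with Mir6236 (rho = 0.74, permutation adjusted p = 0.0015, and 0.70 without Saline 9 and Saline 24). Gm26917, another row of the list of ribosomal RNA, had r = 0.06 with Mir6236 (rho = 0.08, permutation adjusted p = 0.82), and 0.19 without HDL 11 and LNA489 7. The planned relations with the mean of Rn18s-rs5 and Gm26917 had r = 0.93 for Mir6236 and 0.88 for Mir6240. Each had a permutation adjusted p of 0.00042 over 84 relations. Their rho were 0.93 and 0.89, and without LNA92a 17 and dual 10 their r were 0.91 and 0.84. The hairpins of both rows had no match of 90% identity over 80% of their length among the annotated transcripts. The ribosomal repeat itself was not compared here.

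The hairpin Mir703 stands for a different case. It was read in all 20 libraries, between 25 and 92 reads, with a mean of 54.2, and lies opposite Cfap299 on chr5. Its 109 bases were 98.2% identical to a stretch of Eef1a1, the translation elongation factor transcript, which had a mean of 49023 reads. Its level had r = 0.06 with Eef1a1 over the 20 libraries (rho = -0.003, permutation adjusted p = 0.82), and -0.14 without Saline 9 and Saline 24. In all, 11 of the 188 hairpins had such a match elsewhere. Mir692-1 and Mir692-2 matched the ferritin light chain transcript Ftl1 at 95.7% and 97.8%, and Mir684-1 matched Sumo2 at 100% over 85 bases. How reads that fit several places were counted is not given in the sources used here, so the counts of these rows are uncertain.

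The plot of reads gives the 18 members with a mean of at least 10 reads, which were the members that entered the tests. A further 42 were in the variance-stabilized table with lower means, and 135 were not in it.

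**Figure D2:**
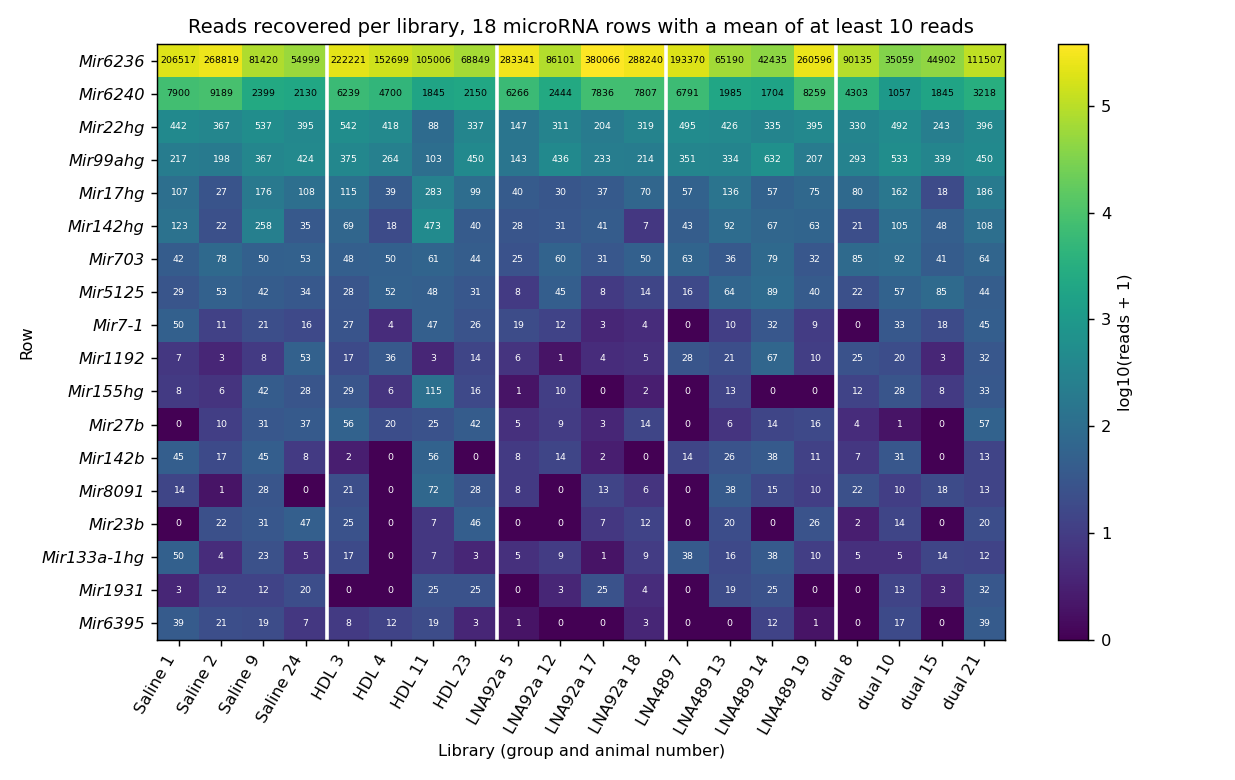
Reads recovered in each library (columns, grouped by treatment, 4 mice each) for the 18 tested rows, coloured by log10(reads + 1) with the read number in each cell. Below Mir142hg most rows have single to double digits in every group, and zeros occur in all 5 groups.

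After Mir6236 and Mir6240, the most read members were the host transcripts Mir22hg, Mir99ahg, Mir17hg and Mir142hg. The host transcripts Mir155hg and Mir133a-1hg had fewer reads than Mir703 and Mir5125. Mir22hg (chr11:75461539-75466676), the host of miR-22, had 14.8 ± 1.65 FPKM with saline and 13.2 ± 8.05 with HDL (mean ± SD, n = 4 in each group here and below). It had 9.67 ± 3.26 with HDL + LNA92a, 13.9 ± 3.52 with HDL + LNA489 and 11.0 ± 3.09 in the dual group. The HDL libraries had 22.8, 13.7, 3.09 and 13.4 FPKM, with HDL 11 the lowest and HDL 3 the highest of all 20. Mir22hg ran against the B cell list across the libraries (r = -0.75, rho = -0.67, permutation adjusted p = 0.019 over 84 relations). Without HDL 11 and LNA92a 17, the 2 farthest libraries, r was -0.56.

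Mir99ahg (chr16:77236317-77773427), the host of miR-99a and let-7c-1, had means between 1.33 and 1.64 FPKM in all groups. Its FPKM was 1.44 ± 0.68 with saline, 1.57 ± 0.90 with HDL, 1.33 ± 0.36 with HDL + LNA92a, 1.63 ± 0.46 with HDL + LNA489 and 1.64 ± 0.32 in the dual group. All groups overlapped.

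Mir17hg (chr14:115042879-115046727) is the primary transcript from which miR-92a and its cluster are cut. It had 107, 27, 176 and 108 reads with saline and 115, 39, 283 and 99 with HDL. It had 40, 30, 37 and 70 reads with HDL + LNA92a, 57, 136, 57 and 75 with HDL + LNA489, and 80, 162, 18 and 186 in the dual group. In FPKM these were 1.90 ± 1.02, 2.72 ± 1.97, 1.00 ± 0.51, 1.50 ± 0.76 and 1.84 ± 1.24 in the same order. The HDL + LNA92a libraries were low but overlapped the HDL libraries in range. Across all libraries Mir17hg rose with the T and NK cell list (r = 0.77, rho = 0.85, permutation adjusted p = 0.0013). It ran against the fibroblast list (r = -0.77, rho = -0.86, permutation adjusted p = 0.0015) and the adipocyte list (r = -0.72, rho = -0.83, permutation adjusted p = 0.0048). Without the 2 farthest libraries these r were 0.75, -0.77 and -0.71.

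Mir142hg (chr11:87755577-87757270), the host of miR-142, had a wide spread. Its FPKM was 24.6 ± 22.4 with saline, 38.8 ± 53.8 with HDL, 7.56 ± 4.34 with HDL + LNA92a, 15.8 ± 5.47 with HDL + LNA489 and 14.5 ± 8.65 in the dual group. HDL 11 had 119 FPKM, and the next highest library, Saline 9, had 55.1. Mir142hg rose with the T and NK cell list (r = 0.77, rho = 0.83, permutation adjusted p = 0.0013, and 0.73 without the 2 farthest libraries). With the B cell list r was 0.70 (permutation adjusted p = 0.024), but rho was 0.49 (adjusted p = 0.18) and r was 0.41 without HDL 11 and LNA92a 17, so that relation rests on them. Mir142b, opposite it, had r = 0.66 with Mir142hg (rho = 0.60, permutation adjusted p = 0.0021, and 0.65 without HDL 4 and HDL 23). Whether the reads were counted by strand is not given in the sources used here, so reads of these 2 rows cannot be told apart.

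Mir155hg (chr16:84703167-84715245), the host of miR-155, had 8, 6, 42 and 28 reads with saline, 29, 6, 115 and 16 with HDL, and 12, 28, 8 and 33 in the dual group. It had 1, 10, 0 and 2 reads with HDL + LNA92a and 0, 13, 0 and 0 with HDL + LNA489. The single-inhibitor libraries were the low ones, though LNA92a 12 and LNA489 13 overlapped with HDL 4. In FPKM the groups had 0.96 ± 0.76, 2.04 ± 2.32, 0.81 ± 0.48, 0.14 ± 0.17 and 0.15 ± 0.30 in that order. Mir155hg also ran against the fibroblast list (r = -0.72, rho = -0.73, permutation adjusted p = 0.0084) and the adipocyte list (r = -0.66, rho = -0.61, permutation adjusted p = 0.028 for r and 0.079 for rho). These come from 216 relations of all tested members, added after the data were seen, and without the 2 farthest libraries r was -0.69 and -0.63.

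**Figure D3:**
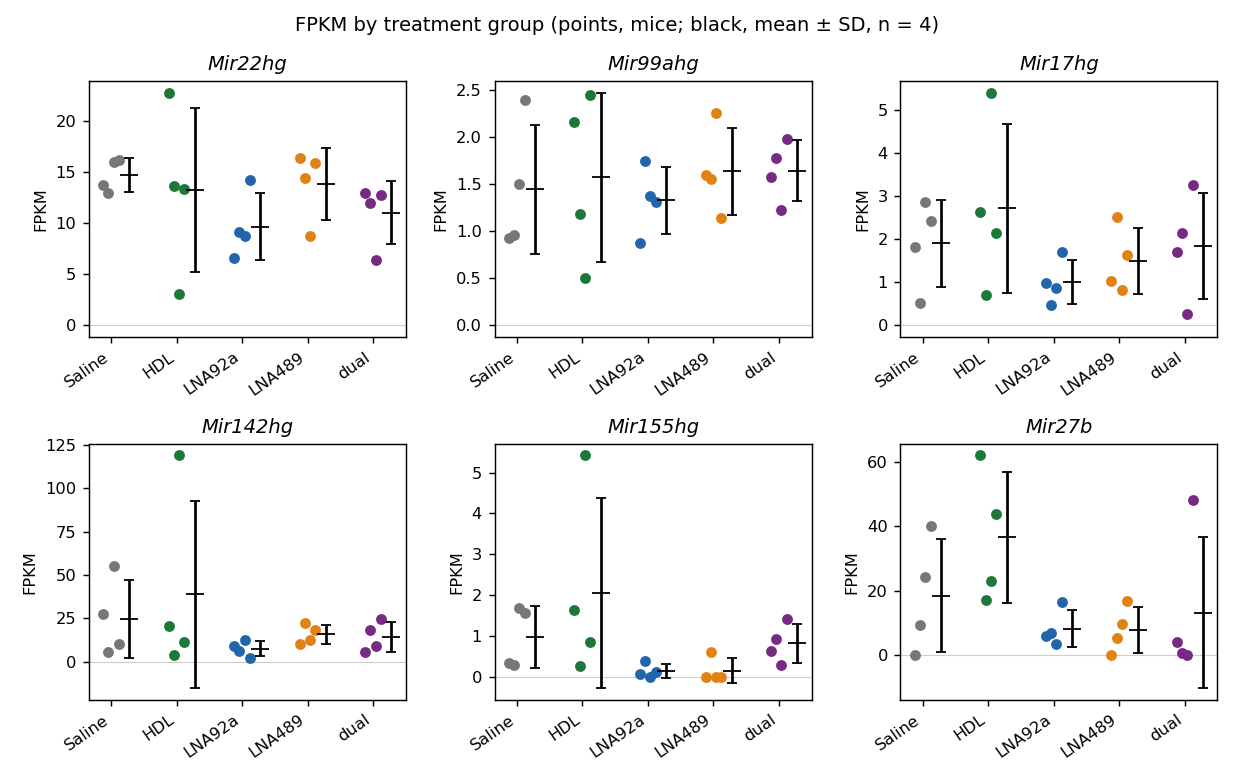
FPKM of 5 host transcripts and Mir27b by treatment group, with 1 point per mouse and the mean ± SD in black (n = 4; an SD bar may reach below 0). The highest Mir142hg, Mir17hg and Mir155hg values, 119, 5.41 and 5.42 FPKM, belong to HDL 11, which has the lowest Mir22hg value.

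Mir23b and Mir27b are neighbours on chr13, at chr13:63300484-63300557 and chr13:63300712-63300784, within 2010111I01Rik. Mir23b had 0, 22, 31 and 47 reads with saline, 25, 0, 7 and 46 with HDL, 0, 0, 7 and 12 with HDL + LNA92a, 0, 20, 0 and 26 with HDL + LNA489, and 2, 14, 0 and 20 in the dual group. It followed the endothelial list more closely than any other tested member (r = 0.83, rho = 0.80, permutation adjusted p = 0.0026, among the added relations). Leaving out Saline 1 and HDL 4, the farthest from the median, gave 0.80, and removing the group means gave 0.91. It also followed its host 2010111I01Rik (r = 0.83, rho = 0.82, permutation adjusted p = 0.00018, and 0.80 without Saline 24 and HDL 3). Against the adipocyte list r was -0.68 (rho = -0.72, permutation adjusted p = 0.025), and -0.72 without Saline 9 and dual 21.

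Mir27b had 0, 10, 31 and 37 reads with saline and 56, 20, 25 and 42 with HDL. It had 5, 9, 3 and 14 reads with HDL + LNA92a, 0, 6, 14 and 16 with HDL + LNA489, and 4, 1, 0 and 57 in the dual group. Every HDL library was above every HDL + LNA489 library, though HDL 4 and LNA489 19 were close, at 17.2 and 16.9 FPKM. In FPKM every HDL + LNA92a library also lay below every HDL library, the highest being LNA92a 18 at 16.5. On the variance-stabilized log2 scale LNA92a 18, at 5.67, was above HDL 11, at 5.64. In the dual group, dual 21 alone was high. Mir27b had r = 0.64 with the host (rho = 0.57, permutation adjusted p = 0.0082), and 0.51 without Saline 24 and HDL 3. With Mir23b r was 0.66 (rho = 0.64, permutation adjusted p = 0.0025), and 0.60 without Saline 1 and HDL 3. Against the adipocyte list it was -0.65 (rho = -0.60, permutation adjusted p = 0.032 for r and 0.079 for rho), and -0.62 without Saline 9 and dual 21.

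The other 4 tested members with a host did not follow it detectably. Mir5125 had r = -0.06 with Srrm2 (rho = -0.13, permutation adjusted p = 0.95) and Mir7-1 r = 0.01 with Hnrnpk (rho = -0.03, permutation adjusted p = 0.97). For Mir1192 and Klf9 r was 0.36 (rho = 0.33, permutation adjusted p = 0.24), and for Mir1931 and Cdk17 it was 0.31 (rho = 0.35, permutation adjusted p = 0.28). Leaving out the pair of libraries farthest from the host's median gave -0.14, -0.15, 0.31 and 0.44 in this order. Mir8091, which lies apart from other genes on chr19, rose with the T and NK cell list (r = 0.72, rho = 0.64, permutation adjusted p = 0.0084, added after the data were seen), with 0.58 when HDL 4 and HDL 11 were left out.

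The number of members with a read in a library went with the marker lists. It had r = -0.90 with the adipocyte list (rho = -0.86) and 0.57 with the endothelial list (rho = 0.59). With the number of genes with a read r was 0.85 (rho = 0.85), and with the assigned reads -0.08 (rho = -0.11). Without the 2 farthest libraries the 4 r were -0.88, 0.49, 0.83 and -0.12. These 4 relations, added after the data were seen, use the same detection values as the rule, so they are a description with no test.

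**Figure D4:**
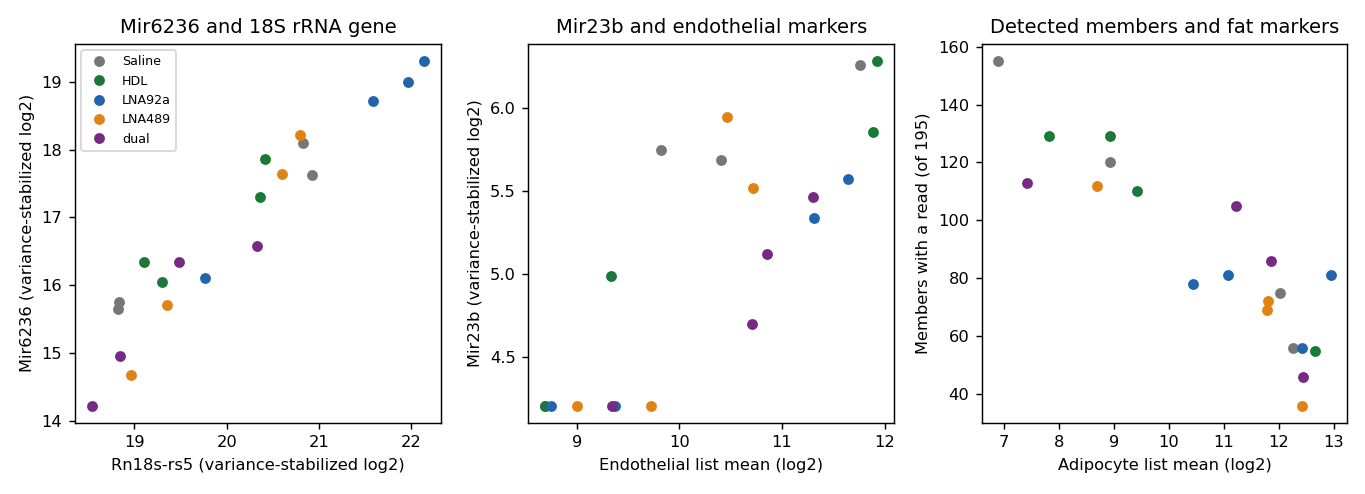
Each point is one of the 20 libraries, coloured by treatment group: Mir6236 against Rn18s-rs5 (r = 0.96), Mir23b against the mean of 12 endothelial markers (r = 0.83), both in variance-stabilized log2 units, and the number of members with a read against the mean of 10 adipocyte markers (r = -0.90). Libraries of every group lie along each trend, and the points at the foot of the middle panel are libraries with 0 Mir23b reads.

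The comparison of HDL with saline asks what the lipoprotein alone changed. No member passed the test: 0 of 18 had an adjusted p under 0.05 (limma on all 17377 genes, of which 0% passed). At an unadjusted p under 0.05 there were 0 members and 1.73% of all genes, 300 in number. Leaving out Saline 24, HDL 3, HDL 4 or HDL 11 raised that number to 585, 466, 672 and 470, with 1 member each. The median difference of the 18 members was 0.03 (variance-stabilized log2, HDL minus saline), as for all genes (0.03), and 10 were higher and 8 lower. Mir142b had the lowest p, with -0.88 ± 0.43 (difference ± SE, limma adjusted p = 1.0), from 45, 17, 45 and 8 reads with saline and 2, 0, 56 and 0 with HDL, and -1.35 without HDL 11. The groups overlapped in every member, while 0.61% of all genes lay wholly higher and 0.403% wholly lower with HDL.

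With HDL + LNA92a, 0 of 18 members and 0% of genes passed against HDL. On the variance-stabilized log2 scale 0 members had groups that did not overlap (1.01% of all genes lay wholly higher and 1.3% wholly lower). In FPKM, Mir27b lay wholly lower. At an unadjusted p under 0.05 there was 1 member, Mir155hg, and 3.57% of all genes (621). That number was 2925 without HDL 4, 400 without HDL 3, 345 without HDL 11 and 392 without LNA92a 5, with 1 member each. Leaving out LNA92a 12 gave 431 genes and 4 members, and leaving out HDL 23 gave 435 genes and 2 members. Mir155hg differed by -1.17 ± 0.38 (95% interval -1.97 to -0.37, limma adjusted p = 0.86). Mir27b differed by -0.78 ± 0.44, Mir6395 by -0.70 ± 0.37 and Mir17hg by -0.58 ± 0.46, without passing. For Mir17hg the value was -0.29 without HDL 11, -0.33 without LNA92a 12 and -0.90 without HDL 4. Mir6236 and Mir6240 had higher means, by 1.39 ± 0.91 and 1.27 ± 0.83, and by 2.11 and 1.91 without LNA92a 12. The median over the 18 members was -0.40 against -0.05 over all genes, and without HDL 11 the members' median was -0.18. On the log2(FPKM + 0.1) scale the median of all genes was -0.45 here and that of the members -1.22, so differences on that scale are relative to a shift of all genes. The adipocyte list mean was 10.4 to 13.0 (median 11.8) in this group and 7.81 to 12.7 (median 9.18) with HDL, and the fibroblast list mean 10.4 to 12.8 (median 11.3) and 8.93 to 12.3 (median 9.52). Their part in these differences was not tested.

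With HDL + LNA489, 0 of 18 members and 0% of genes passed. At an unadjusted p under 0.05 there were 3 members and 3.82% of all genes (664). Without HDL 4 there were 2347 genes and 2 members, and without LNA489 13 1393 genes and 2 members. Leaving out HDL 11 gave 513 genes and 4 members, and leaving out LNA489 7 gave 380 genes and 1 member. Mir155hg differed by -1.39 ± 0.38 (95% interval -2.19 to -0.59, limma adjusted p = 0.92), and without HDL 11 by -1.03. Mir27b differed by -1.04 ± 0.44 (95% interval -1.97 to -0.10, limma adjusted p = 0.92). On the variance-stabilized log2 scale it was the only member whose groups did not overlap. Of all genes, 1.1% lay wholly lower in this comparison and 0.483% wholly higher. The margin was narrow, from 5.60 in LNA489 19 to 5.64 in HDL 11 on the variance-stabilized log2 scale. Mir133a-1hg, the transcript with a muscle microRNA, differed by 0.77 ± 0.34 (limma adjusted p = 0.92). The mean of 10 striated muscle markers was 6.40 to 9.01 in this group and 6.47 to 7.27 with HDL. The adipocyte list mean was 8.69 to 12.4 (median 11.8) in this group and 7.81 to 12.7 (median 9.18) with HDL, and the fibroblast list mean 9.37 to 12.4 (median 12.1) and 8.93 to 12.3 (median 9.52). The part of these lists in the differences was not tested. The median over the 18 members was -0.21, against -0.04 over all genes, and -0.42 without LNA489 19.

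In the dual group, 0 of 18 members and 0% of genes passed against HDL, and 0 had groups that did not overlap (0.783% of all genes lay wholly higher and 1.1% wholly lower). At an unadjusted p under 0.05 there was 1 member, Mir27b, and 2.43% of all genes (422). The number of genes was 1492 without HDL 4 and 799 without dual 21, with 1 member each. It was 259 without dual 10 and 212 without dual 15, with 0 members each, and 293 without HDL 11, with 2 members. Mir27b differed by -1.07 ± 0.44 (95% interval -2.003 to -0.139, limma adjusted p = 1.0), with dual 21 inside the HDL range. The adipocyte and fibroblast list means had medians of 11.5 and 11.2 in this group, and their part was not tested. Mir6236 differed by -1.36 ± 0.91. Mir155hg, low in both single-inhibitor groups, differed by -0.46 ± 0.38, and without HDL 11 by -0.09. Mir17hg differed by -0.47 ± 0.46, and by -0.18 without HDL 11, -0.04 without dual 15, -0.79 without HDL 4 and -0.73 without dual 21. The median over the members was -0.27 against -0.03 over all genes.

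**Figure D5:**
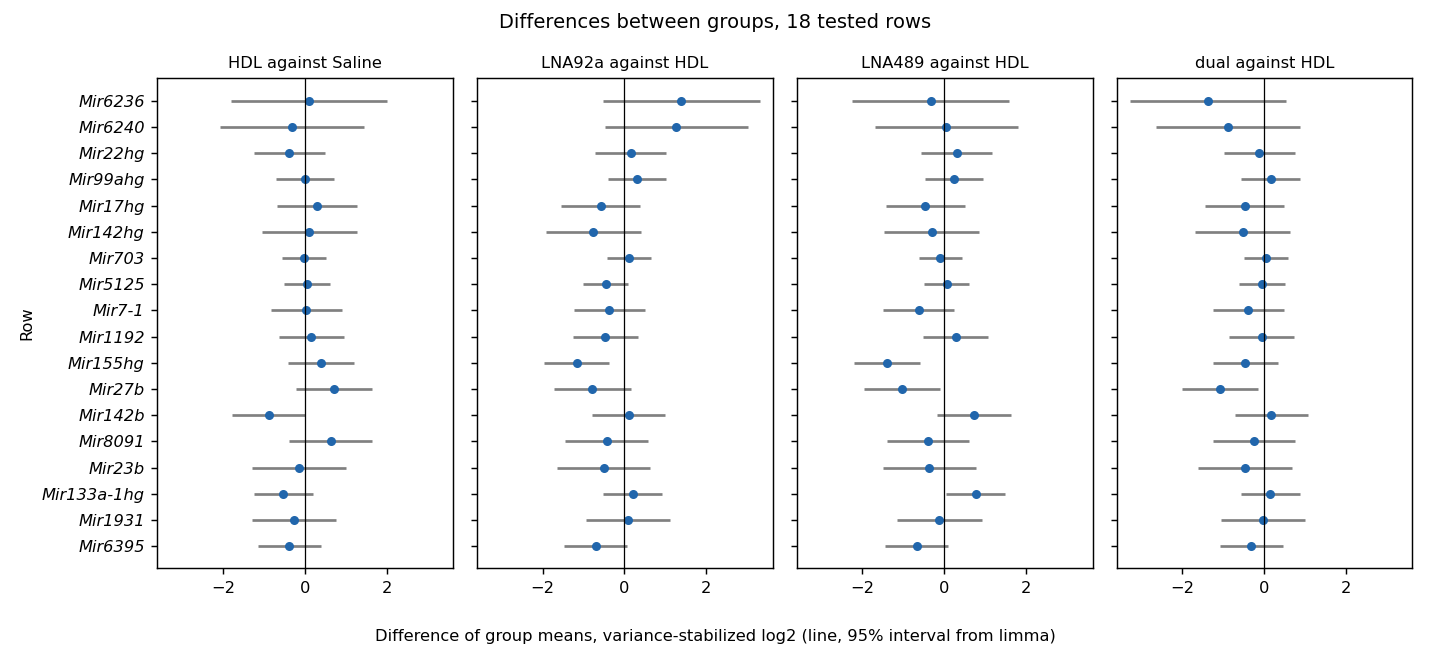
Differences of group means with their 95% intervals from limma (variance-stabilized log2) for the 18 tested rows in the 4 comparisons. The intervals of Mir155hg exclude 0 in both single-inhibitor comparisons and those of Mir27b in the HDL + LNA489 and dual comparisons, all on the negative side, and that of Mir133a-1hg with HDL + LNA489 on the positive side, before adjustment over 17377 genes, after which none passed.

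The test over all 5 groups at once passed 0 members and 0% of genes (limma). Unadjusted, 2 members had a p under 0.05, Mir155hg and Mir6395, with 1.73% of all genes (300). Without HDL 4 there were 764 genes and without LNA489 13 694, with 1 member each. Leaving out dual 21 gave 324 genes and 3 members.

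No gene of the processing pathway passed the test either. Of 26 listed biogenesis genes 23 were tested in each comparison, and 0 rose or fell (limma). In HDL against saline 18 of them had positive differences, with a median of 0.10. Against HDL, 20 of 23 had negative differences with HDL + LNA92a (median -0.30), 18 with HDL + LNA489 (median -0.16) and 20 in the dual group (median -0.23). The medians over all genes were 0.03, -0.05, -0.04 and -0.03 in the 4 comparisons, which share the HDL libraries. Of these 23, 0, 2, 1 and 1 had an unadjusted p under 0.05 in the 4 comparisons. The shares of all genes were 1.73%, 3.57%, 3.82% and 2.43%. Tarbp2, the Dicer1 partner, differed by -0.51 ± 0.22 with HDL + LNA92a (limma adjusted p = 0.86). Adar, the RNA editing enzyme, differed there by -0.69 ± 0.32 (limma adjusted p = 0.86), and by -0.36 without HDL 11. With HDL + LNA489 Adar differed by -0.69 ± 0.32 (limma adjusted p = 0.92), and by -0.36 without HDL 11. In the dual group Adar differed by -0.53 ± 0.32. Dicer1 differed by -0.45 ± 0.21 in the dual group (limma adjusted p = 1.0). For Drosha the 4 differences were 0.02, 0.18, 0.11 and 0.02, for Xpo5 -0.05, -0.13, 0.01 and -0.09, and for Ago2 -0.08, -0.39, -0.06 and -0.05.

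The hosts of the intronic members, 129 of which were tested, gave 0 calls in the 4 comparisons (limma). Their median differences were 0.08 for HDL against saline, -0.22 with HDL + LNA92a, -0.19 with HDL + LNA489 and -0.13 in the dual group. The medians over all genes were 0.03, -0.05, -0.04 and -0.03. Unadjusted, 3, 8, 5 and 0 hosts had a p under 0.05, which is 2.33%, 6.2%, 3.88% and 0% of them, against 1.73%, 3.57%, 3.82% and 2.43% of all genes.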

How the data were processed

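Total RNA of 20 libraries was measured by RNA-seq. The labels' protocols name qiazol, miRNeasy and a Nugen Ovation kit, and the submitters' processing notes name cutadapt 1.16, STAR 2.5.3a, FastQC, featureCounts 1.15.29, DESeq2 1.18.1 and the build GRCm38.p5, with no role or order. Strand, annotation release and the handling of reads that fit several places are not given in the sources used here. The authors deposited FPKM for 32081 genes and variance-stabilized log2 counts for 20442.

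Whole reads were recovered from the deposited FPKM, the gene length and the depth; 100% of the values examined came within 0.1 of a whole number. The main test was limma 3.58.1 (mean trend, 5 group means, 15 residual degrees of freedom, two-sided) on the deposited log2 values of the 17377 genes with a mean of at least 10 reads. P-values were adjusted by Benjamini-Hochberg over all genes tested, and the script was tested on simulated data. That check does not show what size of change could be found in rows with few and variable reads. This read minimum replaced one in FPKM, which passes very short genes with few reads. Annotation came from GENCODE M21, microRNA sequences from RefSeq (GRCm38.p6). Hairpins were compared with the transcripts by blastn 2.17.0. Relations across libraries used Pearson's r and Spearman's rho with 100000 permutations, two-sided, adjusted within each family (6 pairs with hosts, 84 with marker lists, and 216 and 9 added later; 4 with the number of members read are given without a test).

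The genes named were the 12 members with the most reads, host genes with a mean of at least 10 reads, and in each comparison the 3 members with the lowest p in each direction; of the biogenesis genes, 5 fixed ones (of which Dgcr8 was not tested) and the 2 with the lowest p. Members and lists were chosen with earlier results of these data known. Let-7, seed-family and hairpin-match members were named after their values were seen. The alternatives were a minimum mean of 0.5 FPKM, no minimum, log2(FPKM + 0.1), log2(FPKM + 1), centred library medians, and leaving out each library. A planned voom fit of the recovered reads is not reported, because the deposited values are FPKM and not counts. The labels call the 4 samples of a group separate animals. No batch or date is given in the labels.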

Additional observations from a re-analysis of the deposited data

Results flagged for a closer look

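Each of the 18 tested members was examined in each of the 5 groups for 1 library far from the other 3 on the variance-stabilized log2 scale, 90 sets of values in all, and 6 stood out. For normally distributed values, chance alone gives about 1 in 20. Libraries with 0 reads share 1 floor value, so that rate need not hold for these rows. In Mir6240, LNA92a 12 was the lowest of its group at 11.0, with the others between 13.5 and 13.7, and this was the same library that was low in Mir6236. Mir17hg was lowest in Saline 2 at 5.90 (27 reads, the others 107 to 176), and Mir5125 was highest there at 6.47 (53 reads, the others 29 to 42). Saline 2 is the library of its group with the adrenal cortex markers. Mir5125 was lowest in LNA489 7 at 5.54 (16 reads, the others 40 to 89), the library with the fewest genes read. Mir7-1 was highest in Saline 1 at 6.35 (50 reads, the others 11 to 21). Mir155hg was highest in LNA489 13 at 5.28 (13 reads). The other 3 libraries of that group had 0 reads, so any read would have stood out there. The cause of none of these was tested.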

How the results depend on the processing

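The count of 0 members and 0 genes called (limma) held in all 4 comparisons and in the test over all groups, under every scale, minimum and scaling run and with each of the 20 libraries left out in turn. The planned voom fit is not reported. Of the recomputed values, 298 of those that answer a comparison and 1117 others kept their direction and their side of the threshold, or moved by less than the replicate spread. Asking for reads in 10 or more libraries left 69 members. Some differences, none of them called, changed sign, and the cause was not tested. Over the libraries left out, Mir17hg in HDL against saline ran from -0.0156 (without Saline 2) to 0.615, and Mir99ahg with HDL + LNA92a from -0.143 (without HDL 11) to 0.540. On log2(FPKM + 0.1) and log2(FPKM + 1) the latter was -0.0582 and -0.0831. In the dual group Mir99ahg ran from -0.291 (without HDL 11) to 0.392, Mir133a-1hg from -0.0753 (without HDL 4) to 0.385, and Mir142b from -0.0318 (without HDL 4 or HDL 23) to 0.654. The r of Mir5125 and Srrm2 was 0.474 on log2(FPKM + 0.1) and 0.0440 with centred medians, and ran from -0.160 to 0.0346 over the libraries left out. The r of Mir7-1 and Hnrnpk was -0.0739 with group means removed and ran from -0.154 to 0.137. The members' median with HDL + LNA92a was -0.17 with a minimum of 0.5 FPKM and with none, and -1.22 and -0.96 on the FPKM scales. With HDL + LNA489 it ran from -0.42 to -0.12 over the libraries left out, and in the dual group from -0.46 to -0.14. No paired analysis was possible because no animal number occurs in more than 1 group. The low reads limit most members: 151 of 195 averaged under 5 reads.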
